A study of Rattus norvegicus with 6 samples.

Results

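The genes described here are Nqo1, Me1, Pgd, Taldo1, Tkt, Idh1, Txnrd1 and Srxn1, which encode a quinone reductase, enzymes that make NADPH or feed its synthesis, a thioredoxin reductase and sulfiredoxin. They form a set of 8 rat genes picked by name, and the choice was made with the treated against vehicle differences of these same arrays known, so the members were selected on the contrast that is reported. That contrast is therefore given as a description of the members. Where a fit over all probes counts members among its calls, the count is printed with that of all features and nothing is read from it. Of the 8 genes, 7 had a probe whose accession matched the gene in the RefSeq gene table, with 15 probes in all, among 15645 genes named on the array. All 15 probes were well above background on all 6 arrays, so no member passed the filter on dim probes through 1 group alone. Pgd, phosphogluconate dehydrogenase of the pentose phosphate pathway, was not analysed here because no probe accession matched it.

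The study profiled renal cortex from 6 male Sprague-Dawley rats of the Crl:CD(SD) stock, which were 5 weeks old when bought and kept on a basal diet. The vehicle group of 3 rats received corn oil for 4 weeks, and the treated group of 3 rats received sulfone bis(p-chlorophenyl), a diaryl sulfone that carries chlorine on each ring, at 250 mg/kg/day for 4 weeks. The labels call the samples biological replicates and name no transgene or altered allele in either group. Total RNA of each rat was labelled with Cy3 and hybridised to 1 Agilent array, and a value here is the log2 processed signal minus the log2 of that array's 75th percentile over all non-control probes.

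Of the 61537 non-control probes, 66.1% to 68.2% exceeded background on each array. Correlations between pairs of arrays were 0.982 to 0.994 over the tested probes, and probes are not independent replicates. The tissue label was checked against markers fixed for the purpose: all 8 proximal tubule genes, among them Lrp2, Slc34a1 and Slc22a6, were well above background on all 6 arrays. Slide 1, which was also scan 1, held the 3 vehicle arrays and treated 1, whereas slide 2, also scan 2, held treated 2 and treated 3. The difference of treated 1 from the vehicle mean is thus the within-slide value, and for treated 2 and treated 3 slide and treatment cannot be told apart.

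NADPH is the reducing agent that detoxifying and antioxidant enzymes spend. The pentose phosphate pathway, cytosolic malic enzyme and cytosolic isocitrate dehydrogenase supply it, NAD(P)H:quinone oxidoreductase uses it to reduce quinones to hydroquinones, and thioredoxin reductase uses it to keep thioredoxin reduced, which in turn serves the peroxiredoxins that remove peroxides. Many of these genes are known targets of NRF2, a transcription factor that the adaptor KEAP1 marks for degradation and that binds antioxidant response elements with small MAF partners. In kidney the proximal tubule has high oxidative metabolism and meets filtered and secreted chemicals.

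The windows before the transcription start of Nqo1, Me1, Txnrd1 and Srxn1 are shown because their promoters are the ones where NRF2 is usually discussed and because these 4 genes had the largest differences. The sequences are RefSeq's, build GRCr8, 5′ to 3′ on the gene's strand, from 250 bases before the start to 10 bases after it. Capitals mark a match to TGACNNNGC, the core of the antioxidant response element, or to TGANTCAGC, a related form that joins the NRF2 and MAF recognition sequences. Both strands were searched, and the forms overlap where the free base of the latter is C.
Nqo1, chr19:52220258-52220517, minus strand: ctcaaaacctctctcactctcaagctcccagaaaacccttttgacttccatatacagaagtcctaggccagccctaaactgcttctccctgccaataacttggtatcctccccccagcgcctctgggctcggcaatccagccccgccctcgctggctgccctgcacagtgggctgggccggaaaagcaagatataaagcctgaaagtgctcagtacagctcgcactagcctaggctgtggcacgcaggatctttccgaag
Me1, chr8:96540235-96540494, minus strand: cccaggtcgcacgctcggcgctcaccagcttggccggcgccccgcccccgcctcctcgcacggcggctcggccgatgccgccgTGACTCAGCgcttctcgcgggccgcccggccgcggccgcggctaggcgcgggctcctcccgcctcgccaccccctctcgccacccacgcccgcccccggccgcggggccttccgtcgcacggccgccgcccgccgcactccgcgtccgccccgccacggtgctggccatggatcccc
Txnrd1, chr7:22755895-22756154, minus strand: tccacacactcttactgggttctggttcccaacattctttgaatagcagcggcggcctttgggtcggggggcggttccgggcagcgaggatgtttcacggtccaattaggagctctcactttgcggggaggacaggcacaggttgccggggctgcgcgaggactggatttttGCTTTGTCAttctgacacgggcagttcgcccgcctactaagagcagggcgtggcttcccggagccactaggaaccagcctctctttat
Srxn1, chr3:161064562-161064821, plus strand: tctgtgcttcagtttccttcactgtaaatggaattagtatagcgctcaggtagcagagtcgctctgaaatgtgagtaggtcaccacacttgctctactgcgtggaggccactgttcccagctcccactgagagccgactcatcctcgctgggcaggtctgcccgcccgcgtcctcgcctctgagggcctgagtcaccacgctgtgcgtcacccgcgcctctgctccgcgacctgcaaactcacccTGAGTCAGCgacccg

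In the Me1 window 1 stretch, TGACTCAGC, matched both forms and lay at positions -167 to -159 from the start. The Srxn1 window held TGAGTCAGC from -5 to 4, across the annotated start, and Txnrd1 held TGACAAAGC on the opposite strand, so its capitals read as the reverse complement, at -78 to -70 of 1 of its 2 annotated starts. Idh1, whose values did not move with these genes, held TGACCCTGC at -83 to -75. No match lay in the full 300 bases of the windows of Nqo1, Pgd, Taldo1 and Tkt or of the other annotated start of Txnrd1, which says only that these letters are not in these stretches. Across 33469 rat windows of that length, 12.1% held TGACNNNGC, 1.11% held TGANTCAGC, 0.487% held both and 12.7% held either. Of the 8 listed genes, 4 held either form in at least 1 window. That count is per gene, over 9 windows in all, whereas the percentages are per window. A match is a description of the letters and not evidence of binding.

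Nqo1, Srxn1, Me1, Txnrd1 and Tkt had higher mean signal in treated cortex, Taldo1 was nearly level, and Idh1 was split among the treated rats. The 3 treated values lay above all 3 vehicle values for 6 of the 7 measured genes, and Idh1 was the exception. Over all 12118 tested genes, 13.9% had 3 treated values above the 3 vehicle values and 16.8% had them below. The members were chosen on this contrast, so nothing is read from their count. In limma's fit over all 40643 tested probes, 0 of the 7 genes passed an adjusted p of 0.05, as 0.00738% of all tested probes did. At an unadjusted p under 0.05, 4 of the 7 were higher and 0 lower, against 10.1% and 11.3% of all tested genes. The median difference of the 7 genes was 0.64 on the log2 scale, against -0.01 for all tested genes. In a bulk sample, a change in the number of cells of a type and a change in RNA per cell cannot be told apart.

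**Figure D1:**
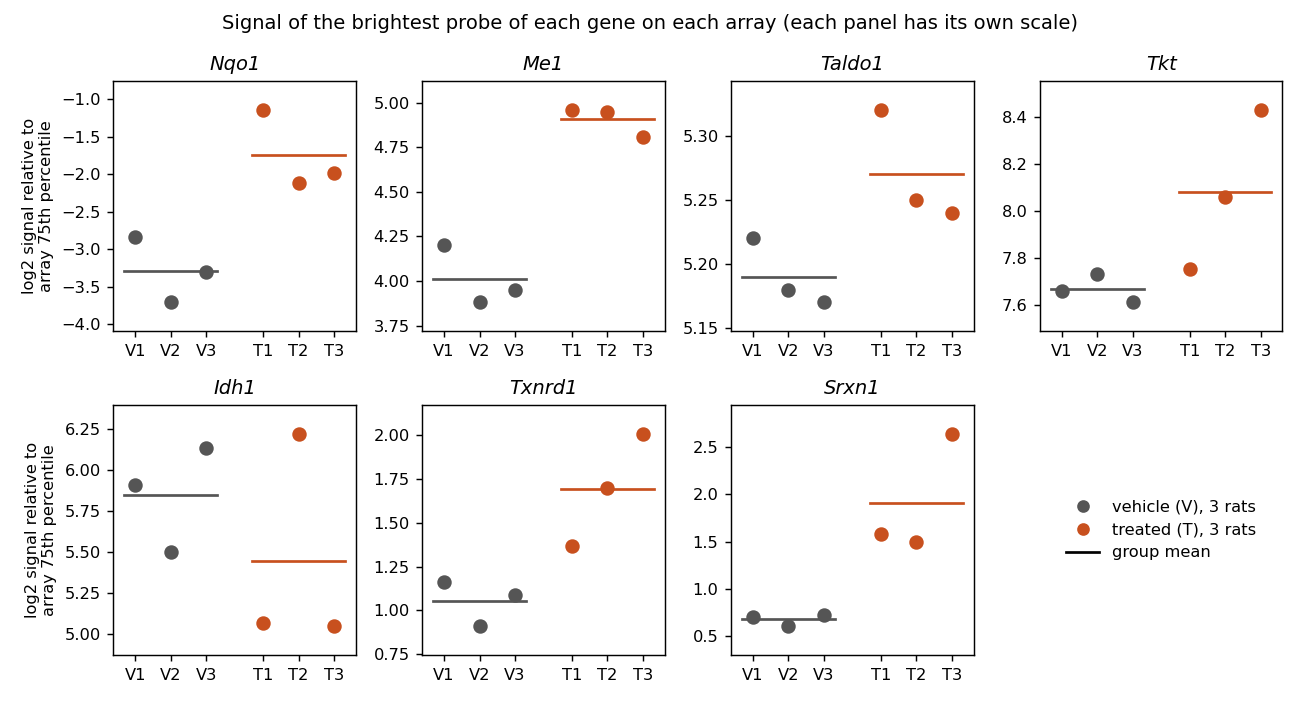
Log2 signal relative to the array's 75th percentile (vertical axis, own scale in each panel) of the brightest probe of each of the 7 measured genes on the 3 vehicle (V) and 3 treated (T) arrays, with lines at the group means. Treated points lie above all vehicle points for every gene but Idh1, where treated 2 is at 6.22 and treated 1 and treated 3 are at 5.07 and 5.05.

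Nqo1 reduces quinones directly to hydroquinones and is the most widely used indicator of NRF2 activity. Its brighter probe had log2 values of -2.84, -3.71 and -3.31 in vehicle 1 to 3 and of -1.14, -2.12 and -1.98 in treated 1 to 3. All treated arrays were above all vehicle arrays, with a gap of 0.72 between the nearest values, and treated 1 was the highest. Vehicle cortex averaged -3.29 ± 0.44 (SD, n = 3) and treated cortex averaged -1.74 ± 0.53 (SD, n = 3), a log2 difference of 1.54 (SE 0.33) or 2.91-fold. The processed signals behind these values were low, at 142, 80 and 104 in the vehicle rats and 501, 210 and 233 in the treated rats. The dimmer Nqo1 probe, at signals of 42 to 49 in vehicle rats, gave a difference of 1.00 (SE 0.21), also without overlap and also with treated 1 highest. Treated 1 shared its slide with the vehicle arrays and stood 2.15 above their mean on the brighter probe, while treated 2 and treated 3 stood 1.17 and 1.31 above it.

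Srxn1, sulfiredoxin, restores peroxiredoxins whose catalytic cysteine has been over-oxidised. The brighter probe had values of 0.71, 0.61 and 0.73 in vehicle 1 to 3 and of 1.58, 1.5 and 2.64 in treated 1 to 3. The vehicle rats were nearly level, within a range of 0.12, whereas treated 3 stood over 1 log2 unit above the other treated rats, which put the treated range at 1.14. Group means were 0.68 ± 0.06 (SD, n = 3) and 1.91 ± 0.64 (SD, n = 3) for vehicle and treated rats. The difference was 1.22 (SE 0.31), 2.33-fold, and 0.89 for treated 1 alone against the vehicle mean. The other Srxn1 probe was dim, at processed signals of 45 to 85, and its groups overlapped, with treated 2 0.09 below the vehicle mean and a difference of 0.36 (SE 0.23). On that probe too treated 3 was the highest array.

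Txnrd1 encodes the cytosolic selenoenzyme that passes electrons from NADPH to thioredoxin. Its brightest probe had values of 1.16, 0.91 and 1.09 in vehicle 1 to 3 and of 1.37, 1.70 and 2.01 in treated 1 to 3. The groups did not overlap, and treated 3 was the highest and treated 1 the lowest of the treated rats. The difference was 0.64 (SE 0.17), 1.56-fold. Its 4 probes had differences of 0.52 to 0.64, and the groups were apart on each of them. The probe with the smallest spread had 1.14, 0.97 and 1.09 in vehicle and 1.54, 1.70 and 1.71 in treated rats, a difference of 0.58 (SE 0.09). Treated 1 was 0.32 above the vehicle mean on the brightest probe and 0.48 above it on the tightest.

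Me1, cytosolic malic enzyme, converts malate to pyruvate and yields NADPH, and it is known both as an NRF2 target and as a gene that accompanies fatty acid synthesis. Me1 had the most even difference of the set. The brightest probe had values of 4.2, 3.88 and 3.95 in vehicle 1 to 3 and of 4.96, 4.95 and 4.81 in treated 1 to 3. The treated rats lay within 0.15 of each other, and the gap to the highest vehicle rat was 0.60. The difference was 0.89 (SE 0.11), 1.86-fold, and the other 2 probes gave 0.95 (SE 0.10) and 0.80 (SE 0.12). Relative to the vehicle mean the treated rats stood at 0.95, 0.94 and 0.79, so the within-slide value was close to those of slide 2.

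Tkt and Taldo1 encode transketolase and transaldolase, which shuttle sugar phosphates between glycolysis and the pentose phosphate pathway and do not make NADPH themselves. Tkt had values of 7.66, 7.73 and 7.61 in vehicle 1 to 3 and of 7.75, 8.06 and 8.43 in treated 1 to 3. The nearest treated and vehicle values were only 0.02 apart, and treated 3 carried most of the difference of 0.41 (SE 0.17). Treated 1 exceeded the vehicle mean by 0.09, treated 2 by 0.39 and treated 3 by 0.76. Taldo1 had 5.22, 5.18 and 5.17 in vehicle and 5.32, 5.25 and 5.24 in treated rats. Its groups were apart by 0.03 and its difference was 0.08 (SE 0.07), and with quantile normalization the groups overlapped. Both genes were measured by 1 probe each.

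Idh1 makes NADPH in the cytosol by oxidising isocitrate. The brighter probe had values of 5.91, 5.50 and 6.13 in vehicle 1 to 3 and of 5.07, 6.22 and 5.05 in treated 1 to 3. Treated 1 and treated 3 were the lowest of all 6 arrays and treated 2 the highest, so the groups overlapped. The mean difference was -0.40 (SE 0.35). The other probe repeated the order of the treated rats, at 3.96, 5.18 and 4.0, against 4.87, 4.45 and 5.14 in vehicle rats. The treated range was 1.17 on the brighter probe and 1.22 on the dimmer one, against vehicle ranges of 0.63 and 0.69. Treated 2 and treated 3 shared a slide.

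**Figure D2:**
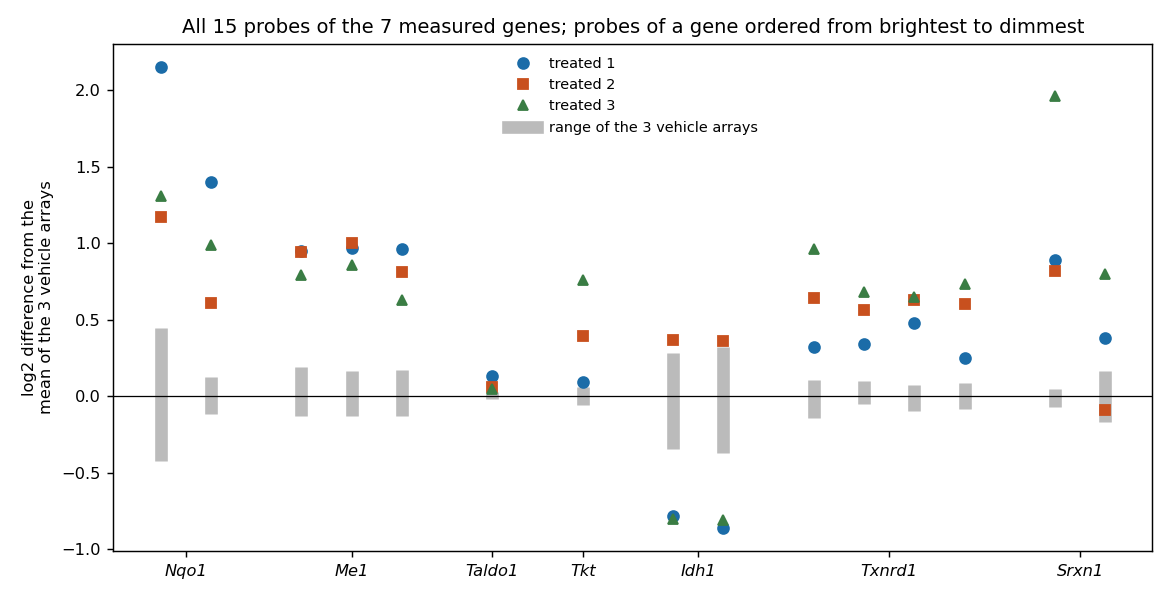
Log2 difference of each treated rat from the mean of the 3 vehicle arrays (vertical axis) for all 15 probes, grouped by gene, with grey bars for the range of the vehicle arrays. Treated 1 is highest for both Nqo1 probes, treated 3 for both Srxn1 probes and for Tkt, and the Idh1 probes show treated 2 above and treated 1 and treated 3 below the vehicle range.

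The treated rats therefore did not rank the same way across the set. On the brightest probes treated 1 was highest for Nqo1, Me1 and Taldo1, and treated 3 for Tkt, Txnrd1 and Srxn1. For Me1, treated 1 and treated 2 were nearly equal at 4.96 and 4.95, and treated 2 was the highest on another probe. Signal of other cell types varied between the same arrays. The summed signal of 10 hepatocyte markers, in units of each array's 75th percentile, was 52.3, 31.7 and 22.6 in vehicle 1 to 3 and 40.3, 40.0 and 90.6 in treated 1 to 3. All 10 were well above background on every array, none of the defining markers was at background, and the groups were apart for 2 of the 10. Treated 3 had the highest sum of these markers and was also the highest array for Srxn1, Tkt and Txnrd1. Vehicle 1 had the next highest sum, at 52.3, but was below treated 1 and treated 2 for each of these genes. Podocyte markers summed to 44.6 in treated 3 against 27.9 to 30.9 on the other arrays. Their part in the member differences was not tested.

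The summed signal of 6 adipocyte markers was 1.28, 1.57 and 1.84 in vehicle rats and 2.64, 2.19 and 2.55 in treated rats, so the groups did not overlap. Of those 6 markers 4 were well above background on all arrays, Lep, which encodes leptin, was on none, and the groups were apart for 1, Cidec, a lipid droplet gene. Adiponectin, Adipoq, had -0.32, -0.11 and -0.23 in vehicle and -0.78, 0.07 and -0.20 in treated rats, which overlapped. Me1 is abundant in fat tissue as well, and the part of these markers in its difference was not tested. The proximal tubule sum was 1190 to 1250 in vehicle and 1010 to 1330 in treated rats, with treated 1 the lowest. Sums of leukocyte and of thick limb and distal markers overlapped between groups. The sum of endothelial markers was 66.8 to 78.6 in vehicle and 78.8 to 93.7 in treated rats, which were apart but nearly touched. Of the 4 endothelial markers the groups were apart for 1, Plvap, and overlapped for 3.

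**Figure D3:**
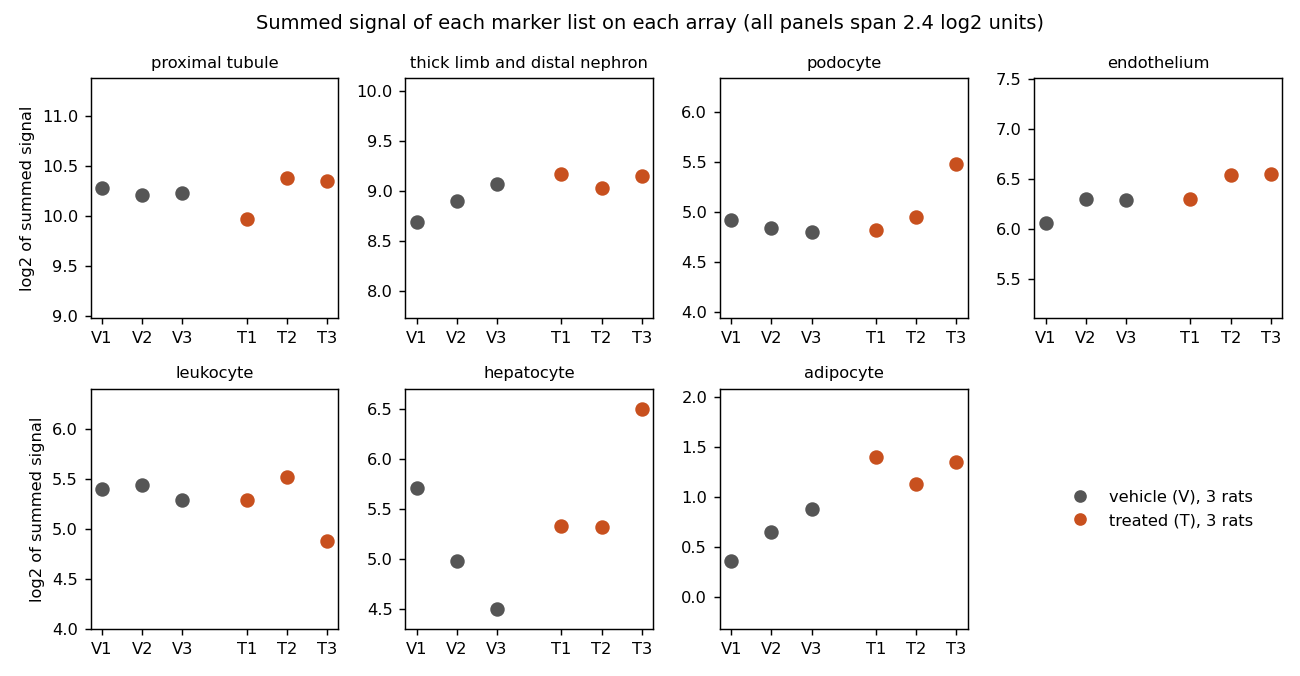
Log2 of the summed signal of 7 marker lists (vertical axis, each panel spanning the same number of log2 units) on the 3 vehicle (V) and 3 treated (T) arrays. The hepatocyte sum is highest in treated 3. The adipocyte sum is higher in all treated than in all vehicle rats, though the groups overlap for 5 of its 6 markers.

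The other genes of the same pathways were taken from lists made from textbook knowledge, with earlier results of these data known, so the lists are not independent of the contrast. Of 80 such genes, 73 had a named probe and 71 were tested, and 1, Dhcr7, was called over all tested probes, with 0 called lower. At an unadjusted p under 0.05 by limma, 22 of the 71 were higher and 3 lower, against 10.1% higher and 11.3% lower among all tested genes. The 3 treated values lay above the 3 vehicle values for 28 of the 71 (39.4%) and below them for 3 (4.23%), against 13.9% and 16.8% of all tested genes, and the median difference was 0.14. Without treated 1, 13 of the 71 had a limma adjusted p under 0.05, all with higher treated values. Of all tested probes 10.3% were then called in either direction, 1467 higher and 2768 lower. That fit sets slide 2 against slide 1 alone, so slide and treatment cannot be told apart in it. With slide as a fixed block, which leaves treated 1 against the vehicle rats, the list medians were -0.03 for pentose phosphate and NADPH supply, 0.06 for thioredoxin, 0.04 for quinone reductases, 0.08 for NRF2 regulators and 0.15 for lipid synthesis.

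Of 19 tested genes of the pentose phosphate pathway and NADPH supply, 0 were called by limma, 3 were higher and 2 lower at an unadjusted p under 0.05 (10.1% and 11.3% of all tested genes), and the median difference was 0.08. H6pd, an NADPH-making enzyme of the endoplasmic reticulum, had a difference of 0.72 (SE 0.14, limma adjusted p = 0.111) on its brightest probe, but 0.14 on another of its 3 probes, where the groups overlapped. Aldh1l1, which makes NADPH while oxidising formyl-tetrahydrofolate, had 4.18, 4.05 and 4.16 in vehicle and 4.54, 4.82 and 4.91 in treated rats, a difference of 0.63 (SE 0.12, limma adjusted p = 0.10), and of 0.41 with slide as a fixed block. Mthfd1l, a mitochondrial folate enzyme, was the lowest of the list at -0.57 (SE 0.17, limma adjusted p = 0.17), with groups that did not overlap, and was -0.15 with normexp. Pgls, the lactonase that acts just before Pgd, had 0.02 (SE 0.09), and the mitochondrial NADPH sources Idh2, Me2 and Nnt had 0.13, 0.07 and 0.08, each with overlapping groups.

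Of 23 thioredoxin, peroxiredoxin, glutaredoxin and methionine sulfoxide reductase genes, 0 were called by limma, 7 were higher and 1 lower at an unadjusted p under 0.05 (10.1% and 11.3% of all tested genes). The groups were apart with higher treated values for 11 (47.8%) and with lower ones for 1 (4.35%), against 13.9% and 16.8% of all tested genes. Some of the 11 were barely apart, with gaps between the nearest values of 0.01 for Prdx2, 0.02 for Glrx and 0.03 for Glrx3. The median difference was 0.13. Msra, which repairs oxidised methionine with electrons from thioredoxin, had 3.47, 3.19 and 3.32 in vehicle 1 to 3 and 4.18, 4.04 and 4.14 in treated 1 to 3. The treated rats were level and clear of the vehicle rats, with a difference of 0.79 (SE 0.10, limma adjusted p = 0.0635) on that probe and 0.81 on its other probe. Txn1, cytosolic thioredoxin itself and the substrate of Txnrd1, had 6.93, 7.05 and 7.0 in vehicle and 7.23, 7.37 and 7.39 in treated rats, a difference of 0.33 (SE 0.08, limma adjusted p = 0.134). Msrb1, a selenoenzyme of methionine repair, had 0.30 (SE 0.10, limma adjusted p = 0.185). A fixed slide block put it at 0.13.

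Prdx1, a peroxiredoxin that Srxn1 repairs, had values of 5.37, 5.50 and 5.82 in vehicle and 5.47, 6.0 and 5.70 in treated rats. The groups overlapped, with a difference of 0.16 (SE 0.18, limma adjusted p = 0.62). The mitochondrial reductase Txnrd2 had -0.02 (SE 0.09) and Txnip, which binds and inhibits thioredoxin, had 0.07 (SE 0.15, limma adjusted p = 0.816), both with overlapping groups. Txnip was -0.09 without treated 1, -0.03 with normexp and 0.38 with slide as a fixed block.

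Among 8 quinone and electron transfer reductases, 0 were called by limma, and 3 were higher and 0 lower at an unadjusted p under 0.05 (10.1% and 11.3% of all tested genes). Those 3 were Por, the electron donor of microsomal P450 enzymes (1.08, SE 0.23, limma adjusted p = 0.121), Blvrb, a flavin and biliverdin reductase (0.68, SE 0.14, limma adjusted p = 0.115), and Cyb5r3, a cytochrome b5 reductase (0.39, SE 0.08, limma adjusted p = 0.109). Por had 2.99, 2.93 and 2.86 in vehicle 1 to 3 and 3.49, 4.10 and 4.42 in treated 1 to 3, with treated 3 highest, and its difference was 0.57 with slide as a fixed block. Nqo2, the paralog of Nqo1 that uses dihydronicotinamide riboside in place of NADPH, had 2.99, 2.95 and 2.98 in vehicle and 2.97, 3.03 and 2.95 in treated rats. Nqo2 was thus level across the arrays, with a difference of 0.01 (SE 0.07, limma adjusted p = 0.956). The difference between Nqo1 and Nqo2 was not tested.

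**Figure D4:**
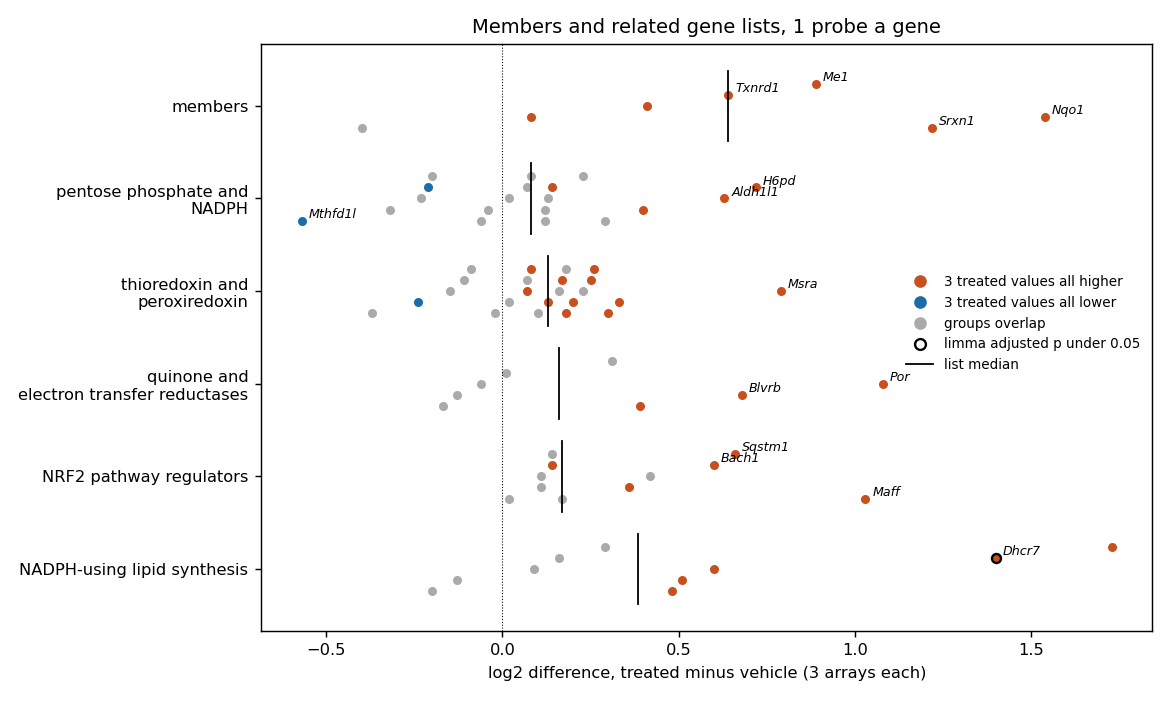
Log2 difference of treated minus vehicle (horizontal axis, 3 arrays each) for each tested gene of the set and of 5 related lists, with orange and blue points where the groups do not overlap, grey where they do, a black ring where the limma adjusted p is under 0.05, and a line at the list median. Medians of the related lists run from 0.08 for pentose phosphate and NADPH genes to 0.39 for lipid synthesis genes. The median of the set itself is 0.64, and the ring marks Dhcr7 at 1.40.

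The mRNA of NRF2 itself, Nfe2l2, had values of 3.93, 3.98 and 3.80 in vehicle and 3.69, 4.23 and 4.2 in treated rats, a difference of 0.14 (SE 0.16, limma adjusted p = 0.642), and its other probe had -0.11. Treated 1, in which Nqo1 was highest, had the lowest Nfe2l2 value on both probes. Keap1 had 0.27, 0.42 and 0.35 in vehicle and 0.33, 0.66 and 0.54 in treated rats, a difference of 0.17 (SE 0.11, limma adjusted p = 0.417). With slide as a fixed block Nfe2l2 was -0.21, Keap1 -0.02 and Prdx1 -0.09, so these signs were not kept. Of 11 genes of the NRF2 machinery, 0 were called by limma, 4 were higher and 0 lower at an unadjusted p under 0.05 (10.1% and 11.3% of all tested genes), and the median was 0.17. Maff, a small MAF partner, had -4.54, -4.48 and -4.26 in vehicle and -3.47, -3.41 and -3.30 in treated rats. The difference of 1.03 (SE 0.10, limma adjusted p = 0.0635) was even across the treated rats. The signal of Maff was low, near that of the dimmer Nqo1 probe. Sqstm1, the autophagy receptor p62 that can sequester KEAP1, had 0.66 (SE 0.19, limma adjusted p = 0.16), and its 5 probes gave 0.34 to 0.66 with no overlap. Bach1, which represses genes with antioxidant response elements, had 0.60 (SE 0.22, limma adjusted p = 0.208), and its groups overlapped on 2 of its 3 probes. With slide as a fixed block Sqstm1 was 0.28 and Bach1 0.15, and Maff was 0.56 with normexp.

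Lipid synthesis is a large user of NADPH. Of 10 tested genes, Dhcr7, which spends NADPH in the last step of cholesterol synthesis, rose by 1.40 (SE 0.08, limma adjusted p = 0.025), from 2.21, 2.14 and 2.13 to 3.65, 3.48 and 3.55. The call held when treated 1 was left out and was lost when any other single array was, at differences of 1.39 to 1.44. Without treated 1, slide and treatment cannot be told apart. The call was also lost with no filter on dim probes and with the filter to probes above background on all arrays. Dim values at the array floor and the replicate block lost it too. With slide as a fixed block the Dhcr7 difference was 1.49. Fatty acid synthase, Fasn, named after its values were seen, had 1.73 (SE 0.21, limma adjusted p = 0.0635). The list median was 0.39 and 0.15 with slide as a block.

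Genes whose pattern over the 6 arrays was most like that of a member were ranked by Pearson's r, which mostly follows the difference between groups. For Nqo1 they were Phf19 (r = 0.996), Slc4a7 (0.994), Zc2hc1c (0.986), Fam241a (0.966) and Mat2a (0.955), among 793 genes with an SD of at least 0.5, of which 21 had r over 0.9. Phf19 had 0.61, 0.04 and 0.23 in vehicle 1 to 3 and 2.04, 1.14 and 1.25 in treated 1 to 3. Like Nqo1 it was highest in treated 1 and, among vehicle rats, in vehicle 1. For Me1 they were Etnk1 (0.994), Hecw2 (0.990) and Rapgef5 (0.988), and for Txnrd1 they were Arrdc1 (0.9998), Pex11a (0.998) and Agfg2 (0.996). For these 2 members 4557 genes had an SD of at least 0.2, and r was over 0.9 for 171 and 361 of them.

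Over 18 alternative settings the sign of each member's difference was kept. Some of these settings cannot change a member's difference: the filters on dim probes, dim values at the array floor, the variance trend and the replicate block. Nqo1 ranged from 1.1 to 2.15, Srxn1 from 0.79 to 1.42, Me1 from 0.83 to 0.99, Txnrd1 from 0.32 to 0.80, Tkt from 0.09 to 0.57, Taldo1 from 0.04 to 0.13 and Idh1 from -0.79 to -0.20. Me1 thus moved least for its size. With slide as a fixed block, which leaves treated 1 against the vehicle rats, Nqo1 was 2.15, Txnrd1 0.32 and Tkt 0.09. Without treated 3, Tkt was 0.24 and Srxn1 0.86, and without treated 1 or treated 3 Idh1 was -0.21 and -0.20. Without treated 2, Idh1 was -0.79 and its treated values lay below all vehicle values.

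**Figure D5:**
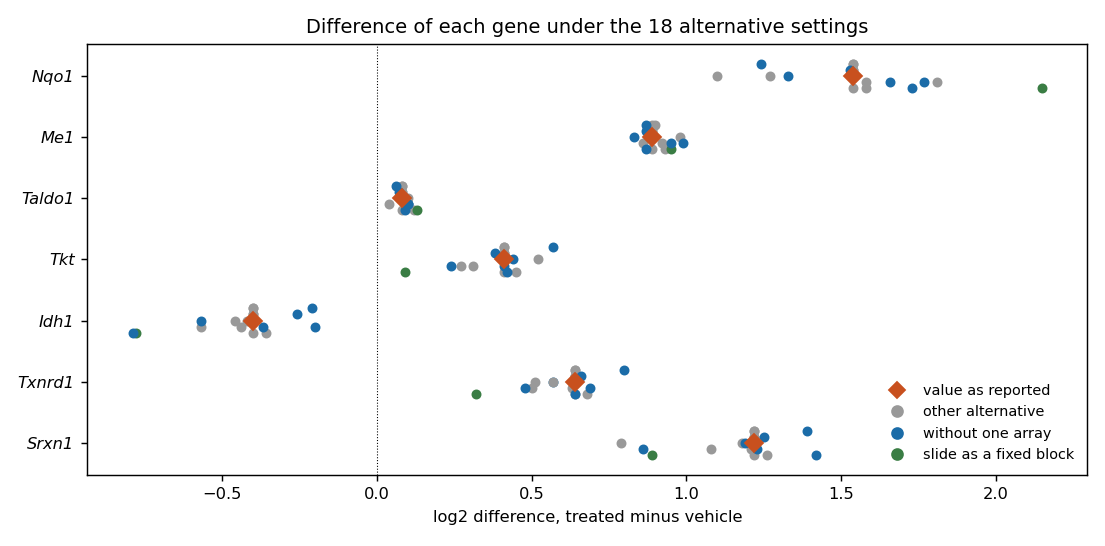
Log2 difference of treated minus vehicle (horizontal axis) for each gene as reported (orange diamonds) and under 18 alternative settings (points). Nqo1 spans 1.1 to 2.15 and Me1 0.83 to 0.99, and the fixed slide block gives the highest value for Nqo1 and the lowest for Tkt and Txnrd1.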

How the data were processed

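Scanner files with linear spot intensity values were deposited for 6 arrays, 1 per rat. Per the file headers, Agilent Feature Extraction 10.7.1.1 subtracted background to give the processed signal (version 10.7 per the submitters' processing notes). Flags of well above background, saturation and outliers are other values that the authors deposited per spot. The series table is close to the processed signal divided by the array's 75th percentile. Its scale is linear and it was not centred on genes, with column medians of 0.105 to 0.11.

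The log2 of each processed signal was set against the array's 75th percentile for 61537 non-control probes. No probe was saturated, 11 with an outlier flag were left out, and 40643 were tested, being well above background on all 3 arrays of a group. Accessions without versions were matched to RefSeq genes (GRCr8): 28206 probes had 1 symbol, 33331 none and 0 several. The brightest tested probe represented a gene. limma 3.58.1 in R 4.3.3 (lmFit, eBayes, two-sided, Benjamini-Hochberg over all tested probes) was tested on simulated data. With 3 arrays per group, their number limits the precision.

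The members and lists were chosen with earlier results of these data known. Named genes were all members, called list genes or otherwise the 3 with the largest difference and groups apart, and 7 fixed genes, of which 1 is not reported here. Pgls, Idh2, Me2, Nnt, Txnrd2 and Fasn were named after their values were seen. The replicate numbers did not pair the rats: same-numbered deviations correlated at -0.21, 0.01 and -0.16.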

Additional observations from a re-analysis of the deposited data

How the results depend on the processing

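All tested probes gave 1 call higher and 2 lower. These counts were 12 and 5 with median centring, 97 and 40 with normexp (on the median spot signal), 110 and 43 with a variance trend, 0 and 1 with no filter, and 0 and 1 with slide as a fixed block. They were 0 and 0 when a probe had to exceed background on every array, with dim values at the array floor, and with the replicate block. Leaving out 1 array gave 0 to 1467 higher and 0 to 2768 lower, the high counts without treated 1. Among members, Me1 was called with normexp and with the variance trend (1 each), and leaving out 1 array gave 0 to 2 calls, Me1 and Txnrd1 without treated 1. With slide as a fixed block the 7 members had a median of 0.32, and with the replicate block 0.64. Of related genes, 2 were called with normexp, 4 with the variance trend, 2 with probes averaged per gene, and 0 with no filter, the all-array filter, slide as a fixed block, the replicate block or dim values at the floor. Leaving out 1 array gave 0 to 13. The replicate block gave no other change of call. The cause of these moves was not tested. Among the members, processed signal was lowest for Nqo1 and the dim Srxn1 probe. Nqo1 was 1.1 with normexp, which also changes the spot summary.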

Other observations

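Rpia, ribose-5-phosphate isomerase of the pentose phosphate pathway, had values of 0.26, 1.52 and 1.61 in vehicle 1 to 3 and 1.46, 1.04 and 1.58 in treated 1 to 3. Its other probe had -0.40, 1.17 and 1.11 in vehicle and 1.09, 0.78 and 1.41 in treated rats. Vehicle 1 was thus the lowest array on both probes. The group difference on the brighter probe was 0.23 (SE 0.38, limma adjusted p = 0.754). Rpia was singled out after its values were seen.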
